A study of Mus musculus with 16 samples.

Results

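Nrarp, the 4 Deltex genes (Dtx1, Dtx2, Dtx3 and Dtx4), the 3 Fringe genes (Lfng, Mfng and Rfng), Numb and Numbl were followed through all 16 arrays of an experiment that switched on Notch1 signaling in mouse embryonic stem cells (ESC) and in mesodermal cells made from them. These 10 genes were taken as a set of known modulators of the Notch pathway, with earlier results of these data known. Counts of members called, set beside shares of the array, are therefore descriptions. Every probe set whose platform symbol is one of the 10 was used. This gave 17 of 45037 probe sets and 10 of 18193 genes that a probe set names alone. A probe set is a group of short oligonucleotides on the array that together read 1 transcript or a few. The cells were EB5 mouse ESC carrying NERT, the Notch1 intracellular domain joined to a hormone-binding domain that 4-hydroxy-tamoxifen (OHT) switches on, or EB5 control ESC carrying the pCAG vector without NERT. OHT was given at 1 µM for 4 h, and cycloheximide (CHX), which blocks protein synthesis, at 50 µg/ml for 4 h alongside it. EB5 NERT mesodermal cells, taken after 4 d of differentiation on collagen IV (up to 5 d by the study's methods), gave 2 arrays each with OHT and CHX, with CHX alone, with OHT alone and untreated. EB5 NERT ESC gave 1 array each with and without OHT in an ectodermal medium (ESCe) and in a mesodermal medium (ESCm). EB5 control cells gave 1 array each with and without OHT as mesodermal cells and as ESC in ESCm. The sources used here do not say whether the replicates came from separate cultures, so a p-value here speaks only of the scatter among these arrays, possibly a technical one, and the precision is limited by how few arrays there are.

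When a Notch receptor binds a ligand on a neighbouring cell, its intracellular domain is cut free, enters the nucleus, joins the DNA-binding protein RBP-J and turns on target genes. The genes followed here act around that step. Nrarp is a small ankyrin-repeat protein, itself a Notch target, that binds the Notch intracellular domain with RBP-J and lowers its activity. Deltex proteins are cytoplasmic ring-finger proteins, ubiquitin ligases of the receptor, and the first of them is known from Drosophila as a regulator of Notch. Fringe proteins are Golgi enzymes that add N-acetylglucosamine to fucose on the receptor and so change which ligands activate it, and Lfng is a cycling gene of the mouse presomitic mesoderm. Numb and Numbl are adaptor proteins of endocytosis that antagonise the receptor. NERT is already an intracellular domain, so these cells report on the genes as responders to Notch activity and not on their action at the receptor.

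The promoters of the 3 genes that answered OHT are shown because the response was read with protein synthesis blocked as well as free. Each is the 250 bases before the RefSeq transcription start (GRCm38.p6), 5′ to 3′ in the direction of the gene, with the RBP-J core TGGGAA, or its complement TTCCCA on the other strand, in capitals. The Nrarp window lies at chr2:25180508-25180757 on the plus strand, that of Lfng at chr5:140607091-140607340 on the plus strand and that of Dtx1 at chr5:120711670-120711919 on the minus strand.
Nrarp: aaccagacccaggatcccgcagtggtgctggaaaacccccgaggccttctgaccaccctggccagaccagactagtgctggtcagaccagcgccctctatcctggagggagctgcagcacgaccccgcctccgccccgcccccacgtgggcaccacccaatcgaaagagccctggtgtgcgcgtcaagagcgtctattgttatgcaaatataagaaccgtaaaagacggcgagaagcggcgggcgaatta
Lfng: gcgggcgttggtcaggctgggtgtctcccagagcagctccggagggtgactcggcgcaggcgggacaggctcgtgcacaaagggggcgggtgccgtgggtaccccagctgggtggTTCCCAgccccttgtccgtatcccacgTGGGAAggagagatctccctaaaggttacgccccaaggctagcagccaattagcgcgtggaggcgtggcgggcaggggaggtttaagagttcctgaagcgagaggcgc
Dtx1: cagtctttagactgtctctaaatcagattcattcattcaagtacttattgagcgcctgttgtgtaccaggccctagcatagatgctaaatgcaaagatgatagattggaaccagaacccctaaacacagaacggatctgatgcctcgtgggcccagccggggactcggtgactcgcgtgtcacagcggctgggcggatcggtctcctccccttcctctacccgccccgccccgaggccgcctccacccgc
The Lfng window holds TTCCCA from 135 to 130 bases before the start and TGGGAA from 108 to 103 bases before it, the second as part of the longer GTGGGAA. The windows of Nrarp and Dtx1 hold neither form. Among 32851 promoter windows of 300 bases (250 before and 50 after the start) 25.6% hold TGGGAA on either strand, 6.38% hold GTGGGAA and 3.79% hold TGGGAA 2 or more times. Of the 10 genes 7 had windows, 9 in all, and 2 of the 9 hold the core, the other being that of Dtx2 from 23 to 18 bases before the start. A match is a description of letters and not of binding, and the lack of one in so short a window does not speak for sites elsewhere or of other forms.

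The deposited values are linear expression intensities, and 46.2% to 48.7% of the values of an array were at 50 or more. Of the 17 probe sets 15 reached 50 as the mean of at least 1 group and were tested, on log2(value + 25), which understates the change of weak signals. The other 2 were Dtx1 1458643_at, at 1.00 to 9.98 on all arrays, and Lfng 1449943_at, at 2.96 to 35.6. Lfng 1420643_at entered the mesoderm test although uninduced mesodermal cells were under that level, because the OHT and CHX groups were above it, so counts of tested probe sets are given as descriptions. Counts of called members are out of all 17 probe sets, of which 15 could be called, whereas the shares of the array beside them are of tested probe sets only. Uninduced EB5 NERT and control mesodermal cells were not alike in their markers. The summed level of 12 pluripotency genes was 14349 to 14722 in NERT mesodermal cells and 21940 in control mesodermal cells, against 25613 to 26334 in ESC without OHT, and the summed level of 11 genes of mesoderm and primitive streak was 4799 to 5700 in NERT mesodermal cells and 1669 in control mesodermal cells, against 671 to 848 in ESC without OHT. Every one of the 12 pluripotency genes was at 50 or more on each ESC array and on each control mesoderm array, and 10 and 12 of them were in uninduced NERT mesodermal cells. Kdr, which encodes the Flk1 protein used to follow differentiation, was at 229 and 277 in uninduced NERT mesodermal cells and 106 in control mesodermal cells, against 172 to 234 in ESC without OHT. Fewer cells of a type and less RNA per cell cannot be told apart in such samples.

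Nrarp gave the largest response to OHT of the 10 genes in both EB5 NERT populations. In mesodermal cells its probe set 1417986_at read 2679 and 2793 with OHT, against 202 and 272 without. Its second probe set, 1417985_at, read 5335 and 5029 with OHT, against 534 and 707 without. Both probe sets stood far apart between the groups, with means 11.5-fold and 8.35-fold higher with OHT. The changes on the log2 scale were 3.41 (SE 0.19, adjusted p = 1.93e-05) and 3.02 (SE 0.21, adjusted p = 7.96e-05, limma over 23971 probe sets), the third and the sixth largest rises of all. Under 16 alternative settings they stayed between 3.21 and 3.60 and between 2.83 and 3.22.

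Lfng and Dtx1 rose with Nrarp, from weaker signals. Lfng 1420643_at was at 155 and 192 with OHT, against 29.5 and 39.0 without OHT in NERT mesodermal cells. Its means of 173 ± 26.3 and 34.3 ± 6.76 (SD, n = 2 each) differ 5.05-fold, and the log2 change was 1.74 (SE 0.18, adjusted p = 0.00118). The other Lfng probe set, too weak to be tested, read 28.5 and 27.8 with OHT, against 22.0 and 16.5 without. Dtx1 1425822_a_at was at 290.5 and 316 with OHT, against 114 and 111 without OHT. Its log2 change was 1.26 (SE 0.18, adjusted p = 0.00827), a 2.70-fold difference of means, and both of its groups were narrow. The Dtx1 call was lost without uninduced replicate 1 (adjusted p = 0.100), without uninduced replicate 2 (0.0755) and without induced replicate 2 (0.0745), with changes of 1.20 to 1.27.

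**Figure D1:**
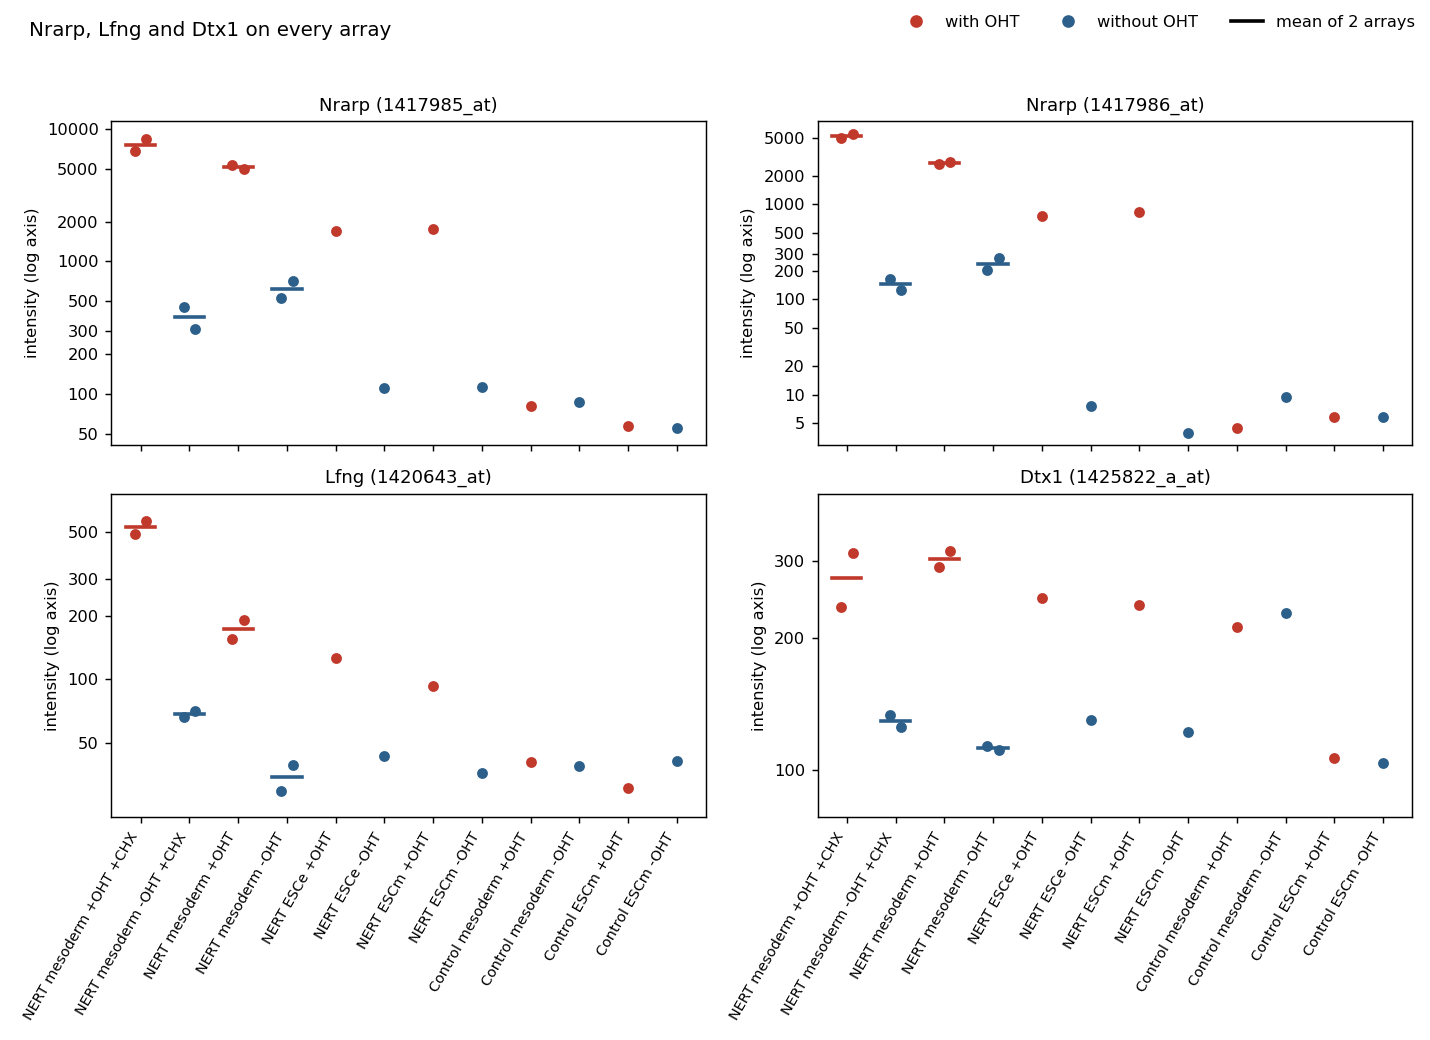
Intensity of both Nrarp probe sets, Lfng and Dtx1 on all 16 arrays (vertical log axes, 1 point per array, red with OHT and blue without, bars the mean of 2 arrays). In EB5 NERT cells every red point lies above the blue points of the same population, and in control cells Nrarp and Lfng stay under 100 in both treatments.

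The other 7 genes had no called response in mesodermal cells. Thus 4 of the 17 probe sets (3 of 10 genes) were called higher, where 0.613% of all tested probe sets were, and 0 were called lower, where 0.28% were. The median change was 0.25 over the 15 tested member probe sets and -0.04 over all tested. Dtx3, a Deltex gene with a ring finger but without the WWE domains of Dtx1, came next, at 641 and 522 with OHT, against 376 and 361 without. The groups did not overlap, yet the change of 0.62 (95% interval 0.15 to 1.08) had an adjusted p of 0.341. Dtx2 1439429_x_at had the most negative value of the set, at 309.7 and 344 with OHT, against 429.6 and 421 without (-0.36, interval -0.83 to 0.11, adjusted p = 0.839). Changes of the 2 Dtx4, the Mfng, the 2 Rfng, the 2 Numb and the Numbl probe sets and of Dtx2 1421720_a_at ran between -0.16 and 0.29. For Numb 1416891_at, with 386 and 456 with OHT, against 468 and 424 without, the interval was -0.45 to 0.29.

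With CHX present, Nrarp and Lfng were higher still with OHT. Nrarp 1417986_at read 4986 and 5540.5 with OHT and CHX, against 166 and 125 with CHX alone. The means differ 36.2-fold, a log2 change of 4.97 (SE 0.19, adjusted p = 3.84e-07). Nrarp 1417985_at changed by 4.25 (SE 0.21), to 6806 and 8474 with OHT and CHX, against 450.4 and 311 with CHX alone. Lfng reached 492 and 562 with OHT and CHX, against 66.4 and 70.6 with CHX alone (7.70-fold, log2 change 2.56, SE 0.18, adjusted p = 5.4e-05). All of these groups were well separated, and the weak Lfng probe set read 35.6 and 31.9 with OHT and CHX, against 6.18 and 15.9 with CHX alone.

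Dtx1 was also called in the presence of CHX, near the threshold. It read 236 and 312 with OHT and CHX, against 133 and 125 with CHX alone, a log2 change of 0.94 (SE 0.18, adjusted p = 0.0481). The call was lost in 9 of 16 alternative settings, with adjusted p up to 0.296, among them leaving out any one of 7 of the 8 arrays, the exception being replicate 1 with OHT and CHX. Again 4 of 17 probe sets were called higher, where 0.567% of all tested were, and 0 lower, where 0.0501% were. The remaining changes lay between -0.34 and 0.36, with medians of 0.14 over the 15 and -0.00 over all tested.

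The difference between the OHT response with CHX and without it was tested as an interaction. None of the 15 probe sets was called by limma, where 0.025% of all tested were (6 probe sets, with 1080 at an unadjusted p under 0.05). The 2 Nrarp probe sets had differences of 1.56 (interval 0.95 to 2.16, adjusted p = 0.155) and 1.23 (0.58 to 1.88, adjusted p = 0.534), and Lfng had 0.82 (0.27 to 1.37, adjusted p = 0.822). Dtx3 had -0.93 (-1.58 to -0.27, adjusted p = 0.888), and Dtx1 -0.31 (-0.87 to 0.24). In the fit of all 16 arrays Nrarp 1417986_at passed with an adjusted p of 0.0304.

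**Figure D2:**
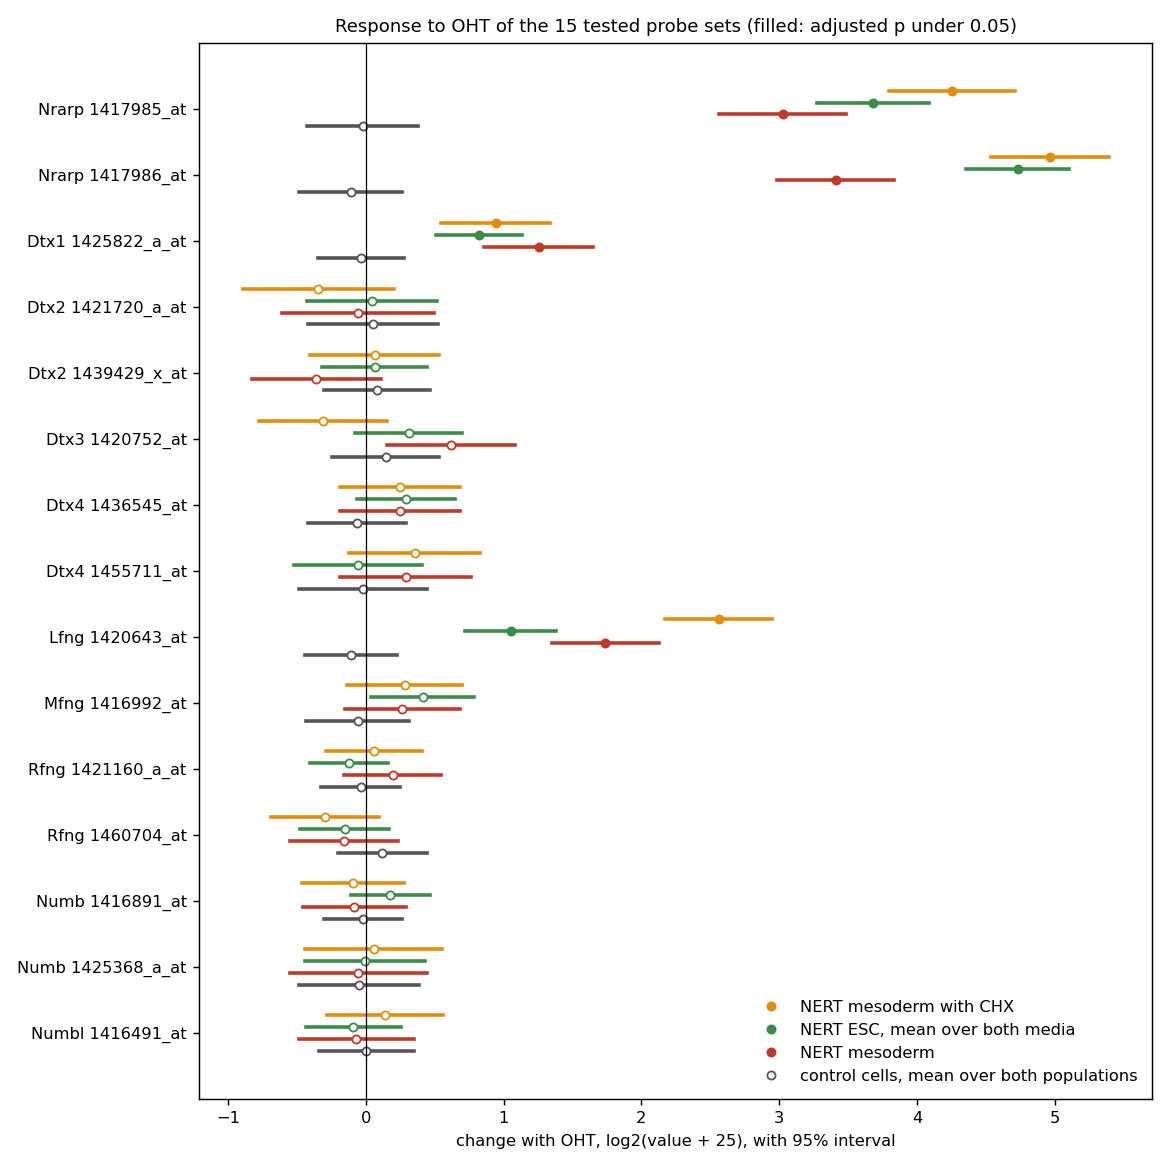
Change with OHT (log2 scale, points, with 95% intervals as lines) of the 15 tested probe sets in 4 settings, with filled points for adjusted p under 0.05. Nrarp, Lfng and Dtx1 are the only genes with filled points, in all 3 EB5 NERT settings and not in control cells.

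Nrarp, Lfng and Dtx1 were also called in EB5 NERT ESC, where OHT was present for 4 h in undifferentiated cells. In this fit the ESC media share an OHT term, and so do the 2 control populations. The response is the mean over both, and any disagreement between them enters the spread. Otherwise conditions with 1 array borrow the spread of those with 2. Nrarp 1417986_at was at 749.8 with OHT in ESCe, against 7.50 without, and at 830.3 with OHT in ESCm, against 3.94 without. Both uninduced values lie under 25, the level taken as a floor here, so the ratios are at least 30.0-fold and at least 33.2-fold. The log2 change over both media was 4.73 (SE 0.17, adjusted p = 5.07e-08), the largest rise of 25847 probe sets, and that of Nrarp 1417985_at was 3.68 (SE 0.19), the second largest. Lfng was at 127 with OHT in ESCe, against 43.4 without, and at 93.3 with OHT in ESCm, against 36.1 without (log2 change 1.05, SE 0.15, adjusted p = 0.00628). Dtx1 was at 246 with OHT in ESCe, against 130.1 without, and at 237 with OHT in ESCm, against 122 without (0.82, SE 0.14, adjusted p = 0.0228). Each was higher with OHT in both media. Thus 4 of 17 probe sets were called higher, where 0.507% of all tested were, and 0 lower, where 0.031% were.

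Those ESC calls rest on few arrays. With 1 medium left out Lfng was no longer called (adjusted p = 0.395 without the ESCe pair and 0.160 without the ESCm pair), nor was Dtx1 (0.555 and 0.679), while both Nrarp probe sets stayed called. Dtx1 was not called on all arrays either when the 12 conditions were the groups (0.154). Mfng read 97.0 with OHT in ESCe, against 56.9 without, and 68.0 with OHT in ESCm, against 53.2 without (0.41, interval 0.04 to 0.79, adjusted p = 0.727). The media themselves made no called difference in any of the 15 probe sets, nor in any of 25847 (0%, limma, with 768 at an unadjusted p under 0.05). The largest member difference was that of Dtx2 1439429_x_at, at 502 and 478 in ESCe with and without OHT, against 397 and 379 in ESCm (mean difference of ESCe minus ESCm 0.32, interval -0.06 to 0.70).

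In EB5 control cells none of the 15 probe sets was called with OHT, nor any of all 25847 (0%, limma, with 308 at an unadjusted p under 0.05). Nrarp 1417985_at was at 80.7 with OHT in mesodermal cells, against 87.4 without, and at 57.6 with OHT in ESC, against 54.9 without. Lfng was at 40.4 with OHT in mesodermal cells, against 38.7 without, and at 30.6 with OHT in ESC, against 41.2 without. Dtx1 was at 212 and 106 with OHT in mesodermal cells and ESC, against 228 and 104 without. The intervals of the mean change over both populations were -0.42 to 0.38, -0.44 to 0.22 and -0.35 to 0.28, and over the 15 they reached from -0.49 to 0.53, with 1 pair of arrays per population. Dtx4 1455711_at was at 87.6 and 115 with OHT in mesodermal cells and ESC, against 123 and 84.7 without, so its mean change of -0.02 joins opposite signs. The OHT response of NERT mesodermal cells minus that of control cells was called for 4 of 17 probe sets, all positive, where 0.344% of all tested were positive and 0.0929% negative. It was 3.52 (SE 0.24) and 3.04 (SE 0.26) for Nrarp, 1.85 (SE 0.22, adjusted p = 0.00226) for Lfng and 1.29 (SE 0.20, adjusted p = 0.0136) for Dtx1. The Dtx1 call was lost without either uninduced NERT mesoderm array (adjusted p = 0.0726 and 0.0581) and with the 12 conditions as groups (0.109).

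The size of the response in ESC minus that in mesodermal cells was not called by limma for any of the 15 probe sets, where 0.031% of all tested were (8 probe sets, with 2114 at an unadjusted p under 0.05). It was 1.32 (interval 0.79 to 1.85, adjusted p = 0.116) and 0.66 (0.09 to 1.23) for Nrarp, -0.69 (-1.16 to -0.22, adjusted p = 0.397) for Lfng and -0.43 (-0.88 to 0.01) for Dtx1. The value of Nrarp 1417986_at moves with the pseudocount, since its uninduced ESC signal is near 0, and with a pseudocount of 5 it was 2.72 (adjusted p = 0.0177).

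Apart from OHT, Nrarp differed between the populations before induction. Uninduced NERT mesodermal cells read 534 and 707 for 1417985_at and 202 and 272 for 1417986_at. Uninduced NERT ESC read 110.3 in ESCe and 113 in ESCm for the first probe set, and 7.50 and 3.94 for the second, and uninduced control mesodermal cells read 87.4 and 9.33. In order of level for 1417985_at, OHT-treated mesodermal cells with CHX (6806 and 8474) stood above those without CHX (5335 and 5029), then came OHT-treated ESC (1769 and 1690.5), uninduced mesodermal cells, uninduced mesodermal cells with CHX (450.4 and 311), uninduced ESC, control mesodermal cells (80.7 to 87.4) and control ESC (54.9 to 57.6). Of the 7 pairs of neighbours 3 were tested. OHT-treated mesodermal cells with and without CHX did not pass (adjusted p = 0.0560, but 0.0471 with the replicate block and 0.0284 in the fit of all 16 arrays), nor did control mesodermal cells and control ESC (difference 0.42, adjusted p = 0.133), while uninduced mesodermal cells with CHX were called lower than those without. The difference of mesodermal from ESC cells without OHT in the NERT line was 2.23 (SE 0.19, adjusted p = 2.04e-06) and 3.08 (SE 0.17), and that of NERT from control mesodermal cells 2.54 (SE 0.21, adjusted p = 5.51e-05) and 2.98 (SE 0.19), a ratio of 7.10 and of at least 9.49. In ESC the NERT line differed from the control line by 0.77 (interval 0.27 to 1.26, adjusted p = 0.339) and -0.07 (-0.53 to 0.39), so neither was called. Whether the line difference itself differs between mesodermal cells and ESC was not tested. Lfng, by comparison, had 29.5 and 39.0 in uninduced NERT mesodermal cells and 38.7 in control mesodermal cells (fitted difference -0.18, interval -0.55 to 0.19). Differences between the lines compare fitted uninduced levels. These also draw on OHT-treated arrays through the shared OHT terms, so they need not equal differences of the values printed.

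Dtx1 ran the other way between the lines. It was at 114 and 111 in uninduced NERT mesodermal cells, against 228 in control mesodermal cells. The fitted log2 difference was -0.85 (SE 0.16, adjusted p = 0.00938), and that of the measured means was -0.88. The call was lost without uninduced replicate 1 (adjusted p = 0.0590) and without replicate 2 (0.0510), and with the 12 conditions as groups (0.0869). In mesodermal cells 2 of 17 probe sets, both of Nrarp, were thus called higher in NERT than in control cells, where 4.42% of all tested were, and 1 was called lower, where 1.49% were. Of all called probe sets 74.8% were higher in NERT cells, or 60.1% after quantile normalization. The marker genes moved in the same comparison, with 9 of 11 mesoderm and streak genes called higher and 6 of 12 pluripotency genes called lower in NERT mesodermal cells, while of 8 neuroectoderm genes 1 was called higher and of 6 tested endoderm genes 0 (summed levels of 2421 to 3024 and 369 to 389 in NERT, 3170 and 318 in control mesodermal cells). Genes of the Notch pathway moved as well. Of 7 tested Hes and Hey genes 1 was called higher, Hey2 (2.00), while Hes5 was not called (0.13). Of 4 receptors 1 was called higher, Notch1 (0.91). Whether its probe set also reads the NERT construct, which control cells lack, was not tested. Of 6 ligands 2 were called higher, Dll3 (0.94) and Jag1 (0.80), and 1 lower, Dlk1 (-0.84). The part of the marker and pathway genes in the Nrarp and Dtx1 differences was not tested. In ESC none of the 15 was called by limma between the lines (0.255% of all tested were, 66 probe sets, and 1723 had an unadjusted p under 0.05). Of the ligands Jag1 was called higher in NERT ESC (1.17), and no Hes, Hey or receptor gene was called there. Of 6 tested endoderm genes 3 were called lower in NERT ESC. The summed endoderm level was 293 in uninduced NERT ESCm, against 832 in uninduced control ESCm. No pluripotency, mesoderm and streak or neuroectoderm gene was called between the lines in ESC.

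Numb was higher in mesodermal cells than in ESC in both lines. Numb 1416891_at read 468 and 424 in uninduced NERT mesodermal cells, against 212 and 192 in uninduced NERT ESC (log2 difference 1.05, SE 0.13, adjusted p = 5.43e-05). In control cells it read 361 and 365 in mesodermal cells, against 195 and 199 in ESC (0.81, SE 0.13, adjusted p = 0.000936). No mesoderm array fell within the range of the ESC arrays. The second Numb probe set, 1425368_a_at, was much closer to the noise, with 71.9 and 98.9 in uninduced NERT mesodermal cells, against 60.5 and 66.0 in uninduced NERT ESC (0.31, interval -0.12 to 0.75, adjusted p = 0.248). Numbl, the close relative of Numb, was at 114 to 169 on all 16 arrays and was called in no comparison.

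Rfng, which adds the same sugar to the receptor as Lfng, was lower in NERT mesodermal cells than in NERT ESC by both probe sets. Rfng 1460704_at read 187 and 200.0 in uninduced mesodermal cells, against 341 and 352 in uninduced ESC (-0.77, SE 0.15, adjusted p = 0.00144). Rfng 1421160_a_at read 92.2 and 107 in uninduced mesodermal cells, against 195 and 181 in uninduced ESC (-0.77, SE 0.13, adjusted p = 0.000558). In control cells the differences were -0.24 (interval -0.57 to 0.08) and -0.07 (-0.36 to 0.21), neither called, and whether they differ from those of NERT cells was not tested. Lfng and Mfng were not called between mesodermal cells and ESC in either line, and Mfng was at 37.9 to 97.0 on the 16 arrays.

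Of the Deltex genes Dtx3 and 1 of the Dtx4 probe sets were called between mesodermal cells and ESC in both lines, Dtx1 in control cells and Dtx2 in neither. Dtx1 was at 212 and 228 in control mesodermal cells, against 106 and 104 in control ESC (0.91, SE 0.14, adjusted p = 0.000758), while uninduced NERT mesodermal cells had 114 and 111, against 130.1 and 122 in uninduced NERT ESC (-0.14, interval -0.45 to 0.18). Dtx3 was at 426 and 387 in control mesodermal cells, against 241 and 213 in control ESC (0.78, SE 0.18, adjusted p = 0.00840), and at 376 and 361 in uninduced NERT mesodermal cells, against 261 and 212 in uninduced NERT ESC (0.60, SE 0.18, adjusted p = 0.0193). The second Dtx3 call was lost without either uninduced mesoderm array (0.0959 and 0.0662) or the ESCm pair (0.181), after quantile normalization (0.38, adjusted p = 0.104) and with the 12 conditions as groups (0.0544). Dtx4 1436545_at was called higher in mesodermal cells by 0.51 in control and 0.45 in NERT cells (adjusted p = 0.0426 and 0.0460), and lost the call in 8 and in 10 of 17 alternatives. In control cells 4 of 17 probe sets were called higher in mesodermal cells, where 12.8% of all tested were, and 0 lower, where 8.16% were. In NERT cells 5 of 17 were called higher and 2 lower, where 23.9% and 13.4% of all tested were, so the shares in NERT cells are near those of the array as a whole. Of all calls in NERT cells 64.1% were higher in mesodermal cells, or 49.8% after quantile normalization.

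**Figure D3:**
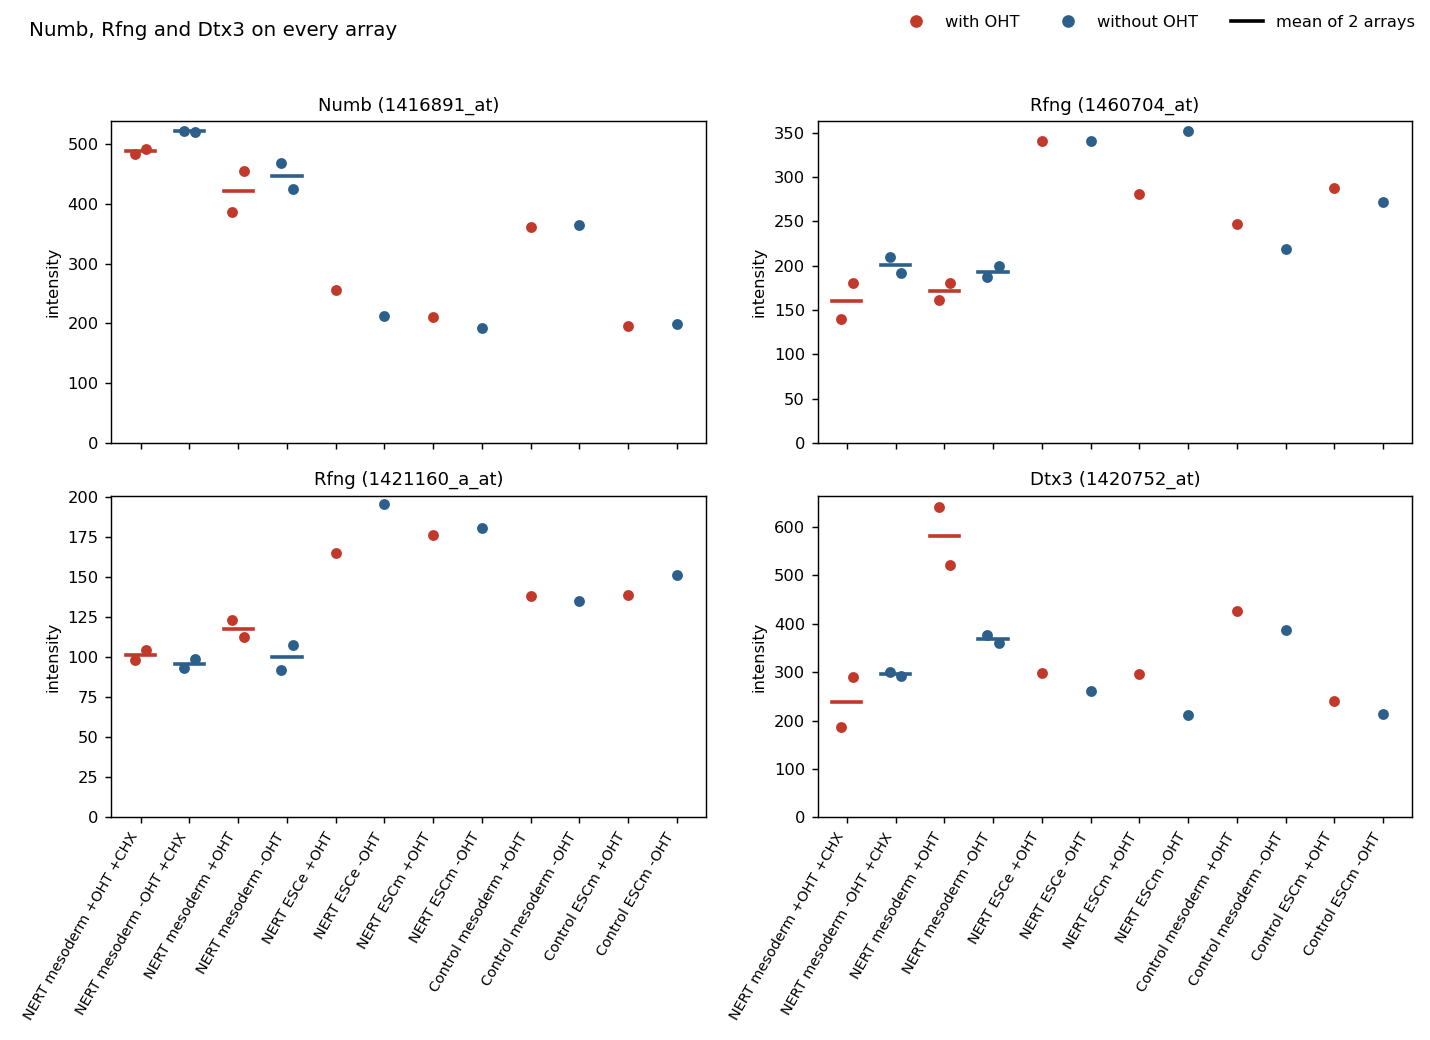
Intensity of Numb, both Rfng probe sets and Dtx3 on all 16 arrays (linear axes from 0, 1 point per array, red with OHT and blue without, bars the mean of 2 arrays). Numb reads 361 to 522 in all mesodermal cells and 192 to 255 in all ESC, and Rfng 1460704_at reads 139.6 to 209.9 in NERT mesodermal cells and 281 to 352 in NERT ESC.

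CHX by itself changed a large part of the array, so its effect on these genes is read against a high background. Without OHT 2 of 17 probe sets were called higher and 2 lower, where 21.1% and 11.7% of all tested were. With OHT 4 of 17 were called higher and 2 lower, where 26.5% and 14% were. Of all calls 64.3% without OHT and 65.4% with OHT were higher with CHX, or 50.6% and 50.2% after quantile normalization, which moved the median of all changes with OHT to -0.04, against 0.10 in the values as deposited. With CHX 10 of 11 mesoderm and streak genes were called lower without OHT and 8 of 11 with OHT, and the summed level of the 11 was 1302 to 1795 with CHX, against 4799 to 5700 without. The part of this in the changes below was not tested.

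Lfng was higher and uninduced Nrarp lower with CHX. Lfng was at 66.4 and 70.6 with CHX alone, against 29.5 and 39.0 untreated (0.66, SE 0.18, adjusted p = 0.0161), and at 492 and 562 with CHX and OHT, against 155 and 192 with OHT alone (1.48, SE 0.18, adjusted p = 0.000136). Nrarp 1417985_at was at 450.4 and 311 with CHX alone, against 534 and 707 untreated, and both probe sets were called lower (-0.68 and -0.62, adjusted p = 0.0289 and 0.0310). With OHT present the sign was the opposite, at 4986 and 5540.5 with CHX and OHT, against 2679 and 2793 with OHT alone for 1417986_at (0.94, SE 0.19, adjusted p = 0.00333), and 0.55 for 1417985_at (adjusted p = 0.0560). The calls without OHT depended on single arrays. Nrarp lost both without untreated replicate 2 (adjusted p = 0.221 and 0.258) and without CHX replicate 2 (0.174 and 0.172), and Lfng lost its call without untreated replicate 1 (0.148), CHX replicate 1 (0.0755) and CHX replicate 2 (0.0810).

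Among the Deltex genes Dtx3 had the largest change with CHX when OHT was present. It was at 188 and 289 with CHX and OHT, against 641 and 522 with OHT alone (-1.22, SE 0.21, adjusted p = 0.00118), and at 299 and 291 with CHX alone, against 376 and 361 untreated (-0.30, adjusted p = 0.303). The 2 groups with OHT did not overlap, and the call held in all 16 alternatives, with changes of -1.51 to -0.94. The difference from the Dtx3 change without OHT is the interaction given above, which was not called. Dtx4 1436545_at was at 385 and 514 with CHX and OHT, against 309.7 and 249 with OHT alone, and at 348 and 396 with CHX alone, against 242 and 219 untreated (0.63 and 0.63, adjusted p = 0.0254 and 0.0307). Both Dtx4 calls were lost after quantile normalization (0.0814 and 0.0642), the first also without OHT replicate 2 (0.143) and without replicate 2 of CHX and OHT (0.113), and the second without any one of its 4 arrays (0.0856 to 0.170). The second Dtx4 probe set, 1455711_at, changed by 0.15 and 0.08 and was not called.

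The 2 probe sets of Dtx2 disagreed with OHT present. Without OHT, 1421720_a_at was at 172.5 and 169 with CHX, against 286 and 257 untreated. It was not called there, but passed limma in the fit of all 16 arrays (-0.60, adjusted p = 0.0450) and after quantile normalization (-0.71, 0.0346). The groups of 1439429_x_at overlapped without OHT, at 604 and 407 with CHX, against 430 and 421 untreated. Dtx2 1421720_a_at was at 91.2 and 179.9 with CHX and OHT, against 229.9 and 294 with OHT alone (-0.89, SE 0.25, adjusted p = 0.0162). Dtx2 1439429_x_at was at 584 and 465 with CHX and OHT, against 309.7 and 344 with OHT alone (0.64, SE 0.21, adjusted p = 0.0340). Probe sets with the ending _a_at read several transcripts of a gene and those with _x_at can bind other sequences, so no single direction can be given for Dtx2. The first call was lost without OHT replicate 2 (0.0995) and without replicate 1 of CHX and OHT (0.102), and the second in 7 of 16 alternatives (up to 0.143), among them leaving out either untreated array, either OHT array or replicate 1 of CHX and OHT.

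**Figure D4:**
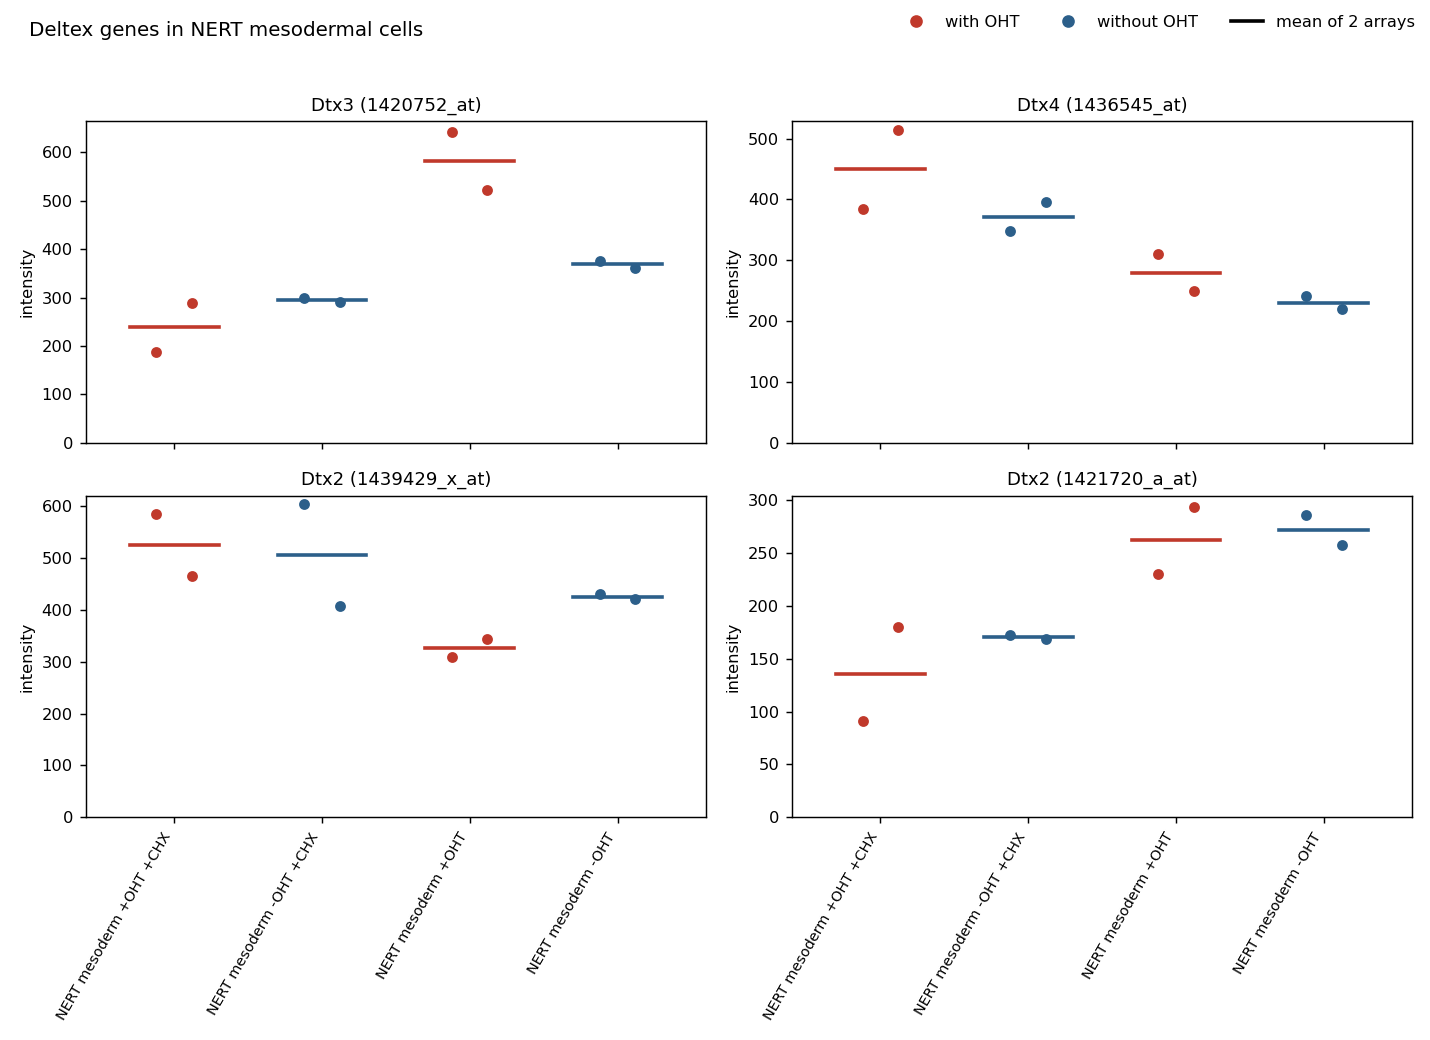
Intensity of Dtx3, Dtx4 1436545_at and both Dtx2 probe sets in the 4 groups of EB5 NERT mesodermal cells (linear axes from 0, 1 point per array, red with OHT and blue without, bars the mean of 2 arrays). Dtx3 is lowest with CHX and OHT (188 and 289) and highest with OHT alone (641 and 522). Dtx4 is higher with CHX, and the Dtx2 probe sets move in opposite directions with CHX when OHT is present.

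The rest of the Notch pathway gives the setting for these values. Of 7 tested Hes and Hey genes, transcriptional repressors and classical Notch targets, 5 were called higher with OHT in NERT mesodermal cells, led by Hes5 (4.93), Hey1 (2.21), Heyl (1.83) and Hey2 (1.57), 5 with CHX present (Hes5 6.71, Hey1 3.79, Hey2 2.78, Heyl 2.69) and 4 in NERT ESC (Hes5 3.57, Hey2 1.94, Hey1 1.78, Heyl 1.26). Of the ligands only Jag1 was called, with 2.03 in mesodermal cells, 2.26 with CHX and 1.50 in ESC, among 5, 5 and 6 tested. Of 4 receptors only Notch1 was called (1.91, 2.09 and 1.11), and whether its probe set also reads the NERT construct was not tested. None of 9 genes of the nuclear complex and none of 11 ubiquitin ligases, trafficking genes and Numb partners was called in these 3 comparisons, and of 10 genes of receptor cleavage and maturation only Aph1b, a subunit of gamma-secretase, was, at 1.14 with CHX (adjusted p = 0.0464). In control cells no gene of these lists was called with OHT.

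Likeness of pattern was measured as Pearson's r of log2 levels over the 12 condition means, across 5513 genes of sufficient level and range. The points share cell lines and culture, so r is a description. The genes most like Nrarp 1417985_at were Hey2 (0.987), Kalrn, a guanine nucleotide exchange factor (0.983), Fjx1 (0.979), Lrig1, an inhibitor of growth factor receptors (0.970), and the fatty acid binding protein Fabp7 (0.969). Those most like Lfng were Heyl (0.984), the small GTPase Rhov (0.972), Hes5 (0.972), the transcription factor Dmrt2 (0.963) and Hey1 (0.961). Nrarp and Lfng had an r of 0.885 with each other. Among the 5513 genes Lfng came at rank 75 in likeness to Nrarp, and Nrarp at rank 40 in likeness to Lfng. Dtx4 1436545_at had 0.717 with Nrarp (rank 304) and 0.749 with Lfng (rank 228), and Dtx1 had 0.703 with Nrarp (rank 334) and 0.712 with Lfng (rank 316). Numb 1416891_at (0.474 and 0.438) and Dtx3 (0.305 and 0.08) were less like them, and Rfng 1460704_at was negative (-0.52 and -0.51).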

How the data were processed

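RNA of 16 samples was labelled and hybridised to Affymetrix Mouse Genome 430 2.0 arrays. The authors computed expression intensities with dChip and normalized the arrays by the invariant set method, with the OHT-treated control mesoderm array as baseline, and they deposited these values on a linear scale without a log. Such scaling assumes that most probe sets do not change, which bears on the CHX comparisons.

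Groups were read from the labels, and genes from GEO's platform annotation (34945 probe sets name 1 symbol, 932 several and 9160 none). All probe sets of each member were kept. For other genes the probe set with the highest mean was used. Probe sets reaching 50 as the mean of at least 1 group were tested on log2(value + 25) in limma 3.58.1 under R 4.3.3 (lmFit, then eBayes with a trend), two-sided, with Benjamini-Hochberg adjustment over all probe sets tested and a threshold of 0.05. The 8 NERT mesoderm arrays (23971 probe sets) gave the effects of OHT and CHX, and all 16 arrays (25847 probe sets) the rest. In the fit of 16 arrays the ESC media shared an OHT term, as did the control populations. Scripts were tested on simulated data. Linear ratios against a mean under 25 are given against 25. Tables and figures were made in Python 3.11.15 with numpy 2.4.6, pandas 2.3.3 and matplotlib 3.10.9.

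The members and gene lists were chosen with earlier results of these data known. Named genes are all members, of each list those past the test (at most 4, largest first), Hes5 and Jag1, and the 5 genes most like Nrarp and like Lfng among those with a condition mean of 100 or more and a range of 1 or more on the log2 scale. Kdr was named outside this rule, as a marker of the culture. Alternatives were pseudocounts of 5 and 50, no filter and a filter of 100, quantile normalization, no trend, the replicate number as a block, the 12 conditions as groups, 16 in place of 8 arrays, and leaving out each NERT mesoderm array or each ESC pair. Promoter sequences are from RefSeq, matched by symbol.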

Additional observations from a re-analysis of the deposited data

Results flagged for a closer look

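The response to OHT differed between EB5 NERT mesodermal cells and EB5 control cells for 4 probe sets of 3 genes, by the interaction contrast in limma over all 16 arrays. The difference, NERT mesoderm minus control on the log2 scale, was 3.52 for Nrarp 1417986_at and 3.04 for Nrarp 1417985_at, 1.85 for Lfng 1420643_at and 1.29 for Dtx1 1425822_a_at. Control cells lack NERT, and their response is the mean over mesodermal cells and ESC. The comparison is thus of cells with and without the construct that also differ in population. The Dtx1 call was lost in 3 of 17 alternative settings.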

How the results depend on the processing

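Over 14 comparisons and 19 alternative settings, 40 results of single probe sets were called, of which 24 were called under every alternative and 16 were lost under 1 or more, and 5 others were gained. No called result changed sign. The number of members called moved as follows. For the interaction of OHT with CHX it was 1 in the fit of all 16 arrays, against 0. For CHX without OHT it was 2 with no filter on low values, against 4, and 0 to 5 when 1 array was left out. It was 0 without replicate 2 of CHX alone and 1 without untreated replicate 2. For CHX with OHT it was 6, and 3 to 7 when 1 array was left out, the lowest without OHT replicate 2. For OHT in NERT ESC it was 4, and 2 to 4, with 2 when either ESC pair was left out. For ESC minus mesoderm it was 1 with a pseudocount of 5, against 0. Equal replicate numbers of the NERT mesoderm arrays share no stated origin. Their deviations correlated by 0.51 between untreated and OHT arrays, and by 0.01 to 0.21 in the other 5 pairs of groups over 23971 probe sets. With the replicate block the members called stayed at 4 for OHT, 4 for OHT with CHX, 0 for the interaction and 4 for CHX without OHT, and were 7 in place of 6 for CHX with OHT, where Nrarp 1417985_at was gained (adjusted p = 0.0471). Leaving out an array leaves fewer to fit, and why these counts moved, in some cases upward, was not tested. Signals near background limit Lfng 1449943_at, Dtx1 1458643_at and uninduced Nrarp 1417986_at. Conditions with 1 array have no spread of their own.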
